A study of Mus musculus with 4 samples.

Results

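Yeats2 and 9 partner genes of histone acetyltransferase complexes were followed through translating ribosome affinity purification (TRAP) of mouse prefrontal cortex. The 10 genes were found by symbol among 24100 genes in the deposited count tables, and all 10 were among the 14636 genes tested. Yeats2 was picked because it stood far above the Input in the immunopurified (IP) libraries, so its difference between IP and Input is given as a description and not as a test. The partners were picked for the complexes they belong to, with the question of whether Yeats2 rose alone.

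The IP group was 3 libraries of RNA bound to EGFP-tagged polysomes, captured with antibodies against EGFP, and the Input group was 1 library of RNA from the same kind of tissue. Each of the 4 libraries pooled 5 untreated adult males of Crh-IRES-Cre, a strain in which Cre recombinase is driven by the Crh locus. The labels named neither the construct that carried the tag nor how it reached the cells. Nor did they tell if IP and Input shared animals, or if each IP library had animals of its own, so a p-value reflects how far these particular libraries spread, and that spread could be technical. Total counts were 10031072 to 23548375 in the IP libraries and 14474529 in the Input. Levels are in CPM, the counts divided by library totals that were adjusted with TMM factors. Crh was at 501, 174 and 193 CPM in IP 1, 2 and 3, against 1.32 CPM in the Input. Of marker lists, 8 genes of GABAergic neurons summed to 3550 to 4563 CPM in the IP libraries, against 776 CPM in the Input. Of the other lists, 7 excitatory neuron genes summed to 3265 to 6229 CPM in the IP libraries (Input 5158 CPM), 6 astrocyte genes to 252 to 350 (501), 6 oligodendrocyte genes to 318 to 499 (683), 6 microglial genes to 4.38 to 19.0 (64.6) and 6 endothelial genes to 116 to 423 (30.5).

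Histone acetyltransferases add acetyl groups to lysines of histones and work inside large complexes that also hold readers and adaptors. YEATS2 is the acyl-lysine reader and a scaffold subunit of the ATAC complex, where KAT2A or its close relative KAT2B is a catalytic subunit. TADA2A, TADA3, ZZZ3, MBIP, WDR5 and DR1 are further subunits. TADA3 and the KAT2 enzymes also serve in SAGA, WDR5 serves in methyltransferase complexes, and YEATS4, another YEATS domain protein, belongs to the TIP60 and SRCAP complexes and not to ATAC.

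Sequences upstream of the transcription start are shown for 3 genes, for orientation at the loci the results turn on: Yeats2 itself, its catalytic partner Kat2a, and Atg7, the gene whose values were nearest to those of Yeats2. They are the 250 bases before the start in RefSeq on GRCm38.p6, read 5′ to 3′ on the gene's strand, at chr16:20140813-20141062 (plus) for Yeats2, chr11:100712468-100712717 (minus) for Kat2a and chr6:114670846-114671095 (plus) for Atg7, with CG dinucleotides in capitals.
Yeats2: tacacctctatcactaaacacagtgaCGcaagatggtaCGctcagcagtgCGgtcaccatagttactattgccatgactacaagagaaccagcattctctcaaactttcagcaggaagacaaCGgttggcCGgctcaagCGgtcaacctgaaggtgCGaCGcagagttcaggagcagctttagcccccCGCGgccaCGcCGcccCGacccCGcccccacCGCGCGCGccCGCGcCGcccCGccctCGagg
Kat2a: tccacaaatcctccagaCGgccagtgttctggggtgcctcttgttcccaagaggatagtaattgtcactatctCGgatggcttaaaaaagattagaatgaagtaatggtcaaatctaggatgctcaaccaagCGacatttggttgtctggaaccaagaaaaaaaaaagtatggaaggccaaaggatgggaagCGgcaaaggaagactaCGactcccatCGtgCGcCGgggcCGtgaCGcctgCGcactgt
Atg7: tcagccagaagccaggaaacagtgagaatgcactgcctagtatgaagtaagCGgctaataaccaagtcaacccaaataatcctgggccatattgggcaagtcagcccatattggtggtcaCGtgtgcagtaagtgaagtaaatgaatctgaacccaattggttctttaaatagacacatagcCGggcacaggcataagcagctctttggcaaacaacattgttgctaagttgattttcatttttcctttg
The window of Yeats2 held 23 CG dinucleotides, that of Kat2a 11 and that of Atg7 3, and the median over 32851 such windows was 6. At least 23 were found in 13.3% of all windows, at least 11 in 35.6% and at least 3 in 71% of them. The letters TATAAA, searched on both strands, were in none of these 3 windows and in 12.4% of all windows.

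Yeats2 (Entrez 208146, chr16:20141063-20232573, plus strand, protein coding) had 25252, 14916 and 28319 counts in IP 1, 2 and 3, against 532 counts in the Input. In CPM it was at 1101, 1595 and 2442 CPM in the IP libraries, against 31.9 CPM in the Input. Every IP library was far above the Input, and IP 3 was the highest and IP 1 the lowest. The mean was 1712 ± 678 CPM in IP (SD, n = 3), and the fitted log2 fold of IP over Input was 5.75 ± 0.55 (SE), which is 53.7-fold. Among 60 genes called higher in IP, Yeats2 had the 10th largest log2 fold, and among all 14636 tested genes the 100th largest. The fold sets RNA captured with tagged polysomes against RNA of pooled tissue. Differences in the number of cells of a type, in the RNA per cell, in binding to polysomes and in capture cannot be told apart. The GABAergic and endothelial marker sums given above were also higher in every IP library than in the Input, and their part in the Yeats2 result was not tested. All 8 GABAergic genes (4 called by edgeR) and all 6 endothelial genes (0 called by edgeR, 3 at an unadjusted p under 0.05 and 2 called by DESeq2) were above the Input in all 3 IP libraries, and the microglial genes C1qa and Tmem119 had 0 counts in at least 1 library. Slc2a1 made up most of the endothelial sum of IP 2. It was at 49.9, 307 and 103 CPM in IP 1, 2 and 3 (Input 22.8 CPM). Pecam1 was at 6.06, 4.92 and 30.9 CPM (0.720), Cdh5 at 7.67, 5.24 and 25.0 (1.86) and Cldn5 at 5.67, 1.82 and 5.86 (0.540). Pecam1, Cdh5 and Cldn5 were highest in IP 3 as Yeats2 was, though Cldn5 was nearly level in IP 1. Flt1, at 44.7, 94.8 and 16.04 CPM, was highest in IP 2 and lowest in IP 3. Tek, at 1.92, 9.41 and 5.95 CPM, was also highest in IP 2. The GABAergic sum was highest in IP 1, where Yeats2 was lowest, at 4563, 3550 and 4280 CPM in IP 1, 2 and 3. Crh, at 501, 174 and 193 CPM, was also highest in IP 1. Of 7 excitatory genes, 5 lay under the Input in each of the 3 IP libraries and 2 (Nrgn and Nrn1) were called lower by edgeR, while Camk2a, which gave most of that sum, was at 2590, 4976 and 4160 CPM in the IP libraries, against 2902 CPM in the Input.

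**Figure D1:**
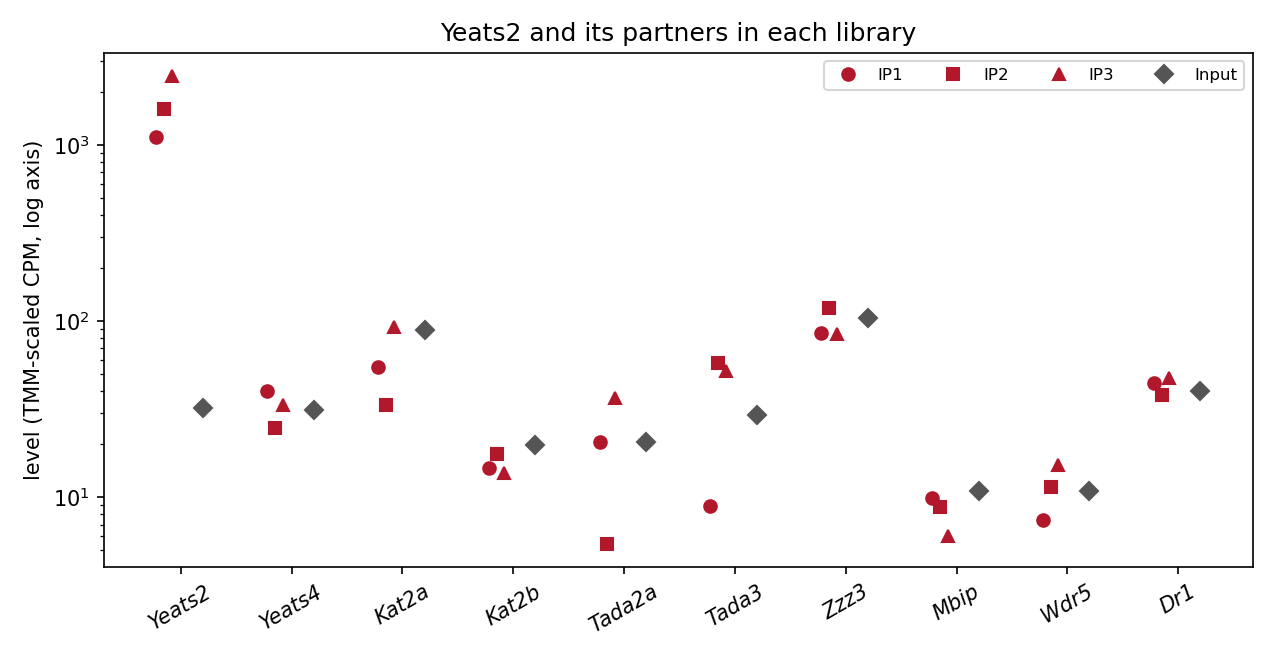
Level of each of the 10 genes in each library, in TMM-scaled CPM on a log axis, with the 3 IP libraries in red and the Input in grey. Yeats2 lies at 1101 to 2442 CPM in IP and 31.9 CPM in the Input, while the IP points of 7 partners lie on both sides of their Input and those of Kat2b and Mbip lie below it.

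Of the 10 genes, 1 was called (Yeats2, higher in IP) by the quasi-likelihood test of edgeR with Benjamini-Hochberg adjustment over all genes, against 0.458% of all genes in either direction, 0.41% higher in IP and 0.0478% lower in IP. Because that contrast chose Yeats2, nothing is read from the count. None of the 9 partners was called by edgeR, none by DESeq2 and none by limma-voom, and 0 of the 9 had an unadjusted edgeR p under 0.05, as had 3.2% of all genes on the higher side and 1.23% on the lower side. Their log2 folds ran from -0.56 (Kat2a) to 0.43 (Tada3), with a median of 0.021 beside a median of 0.083 over all genes. All 9 had the same adjusted p of 0.99995 in edgeR. Intervals were wide, and the highest upper 95% bound of a partner was 2.65 on the log2 scale (Wdr5). Of the 10 genes, 1 had all 3 IP libraries above the Input (Yeats2), as had 19.7% of all genes, and 2 had all 3 below it (Kat2b and Mbip), as had 24.1% of all genes.

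The 2 KAT2 genes of the catalytic subunit lay at or below the Input in most IP libraries, with log2 folds less than their SE from 0. Kat2a (Entrez 14534, chromosome 11, 100704746 to 100712465), which encodes the acetyltransferase GCN5, was at 55.0, 33.5 and 92.5 CPM in IP 1, 2 and 3, against 89.1 CPM in the Input. IP 3 was level with the Input and the others were below it, with a log2 fold of -0.56 ± 0.65 (SE). Kat2b (Entrez 18519, chromosome 17, 53566861 to 53672720), which encodes the acetyltransferase PCAF, was at 14.7, 17.5 and 13.8 CPM in the IP libraries, against 19.8 CPM in the Input. All 3 IP libraries were slightly lower, with a log2 fold of -0.37 ± 1.02 (SE). The coding sequences of the pair were 72.2% identical, and the longest run shared without a mismatch was 19 bases, printed here from positions 467 to 485 of the Kat2a coding sequence to show how short it is.
Kat2a and Kat2b shared run: tggagaatgtgtcagagga
A pseudogene of Kat2b (Kat2b-ps) held 7.75% of the 50-base words of the Kat2b transcript, so part of that count is uncertain.

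The adaptor genes varied most among the IP libraries. Tada2a (Entrez 217031, chromosome 11, 84078920 to 84129600), the ADA2 adaptor specific to ATAC, was at 20.6, 5.45 and 36.6 CPM in IP 1, 2 and 3, against 20.6 CPM in the Input. Tada3 (Entrez 101206, chromosome 6, 113366025 to 113377883), the ADA3 adaptor, was at 8.89, 57.6 and 51.7 CPM in the IP libraries, against 29.1 CPM in the Input. IP 2 was thus the lowest library for Tada2a and the highest for Tada3, and in both genes the IP libraries spanned the Input. Their log2 folds were 0.021 ± 1.07 for Tada2a and 0.43 ± 0.95 for Tada3 (SE). The ratio of the highest to the lowest IP library was 6.70 for Tada2a, 6.48 for Tada3 and 2.76 for Kat2a, against a median of 2.45 over the 12689 tested genes with counts in all IP libraries. It was 2.22 for Yeats2 and 1.25 to 2.04 for the other 6 genes.

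The remaining ATAC subunits stayed near the Input. Zzz3 (Entrez 108946, chromosome 3, 152395473 to 152462826), a histone-binding zinc finger subunit, was at 85.2, 119 and 84.5 CPM in IP 1, 2 and 3, against 104 CPM in the Input, and its log2 fold was -0.12 ± 0.54 (SE). Pseudogenes held 3.8% of its 50-base words and 0.104% of its exon bases lay opposite exons of Ak5, so its count carries some uncertainty. Dr1 (Entrez 13486, chromosome 5, 108268897 to 108280526), a subunit of ATAC and of the TBP repressor NC2, was at 44.4, 38.2 and 47.8 CPM in the IP libraries, against 40.0 CPM in the Input (log2 fold 0.12 ± 0.75, SE). Zzz3 had the smallest SE of the partners, and the IP values of both genes lay on both sides of the Input. Mbip (Entrez 217588, chromosome 12, 56328303 to 56345894), known as a binding partner of a MAP kinase kinase kinase, was at 9.94, 8.77 and 6.04 CPM in the IP libraries, against 10.9 CPM in the Input (log2 fold -0.40 ± 1.32, SE). Wdr5 (Entrez 140858, chromosome 2, 27515157 to 27536535), a WD40 scaffold protein, was at 7.45, 11.4 and 15.2 CPM in the IP libraries, against 10.9 CPM in the Input (log2 fold 0.056 ± 1.24, SE). The relative Wdr5b shared no 50-base word with Wdr5. Mbip and Wdr5 had the lowest levels of the partners and the widest errors.

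Yeats4 (Entrez 64050, chromosome 10, 117215221 to 117224507), the YEATS domain partner from outside ATAC, was at 40.2, 24.6 and 33.5 CPM in IP 1, 2 and 3, against 31.4 CPM in the Input. The IP libraries spanned the Input, and the log2 fold was 0.061 ± 0.82 (SE). Yeats4 and Yeats2 thus had nearly the same Input level in CPM and differed in IP. The other YEATS domain genes, Mllt1 and Mllt3, which encode the subunits ENL and AF9 of transcription elongation complexes, were at 41.0, 54.0 and 50.1 CPM (Mllt1) and 154, 109 and 125 CPM (Mllt3) in the IP libraries. Their Input levels were 42.6 CPM (Mllt1) and 91.4 CPM (Mllt3), and their log2 folds were 0.18 ± 0.72 and 0.50 ± 0.52 (SE). Neither was called (adjusted p = 0.99995 for both in edgeR).

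**Figure D2:**
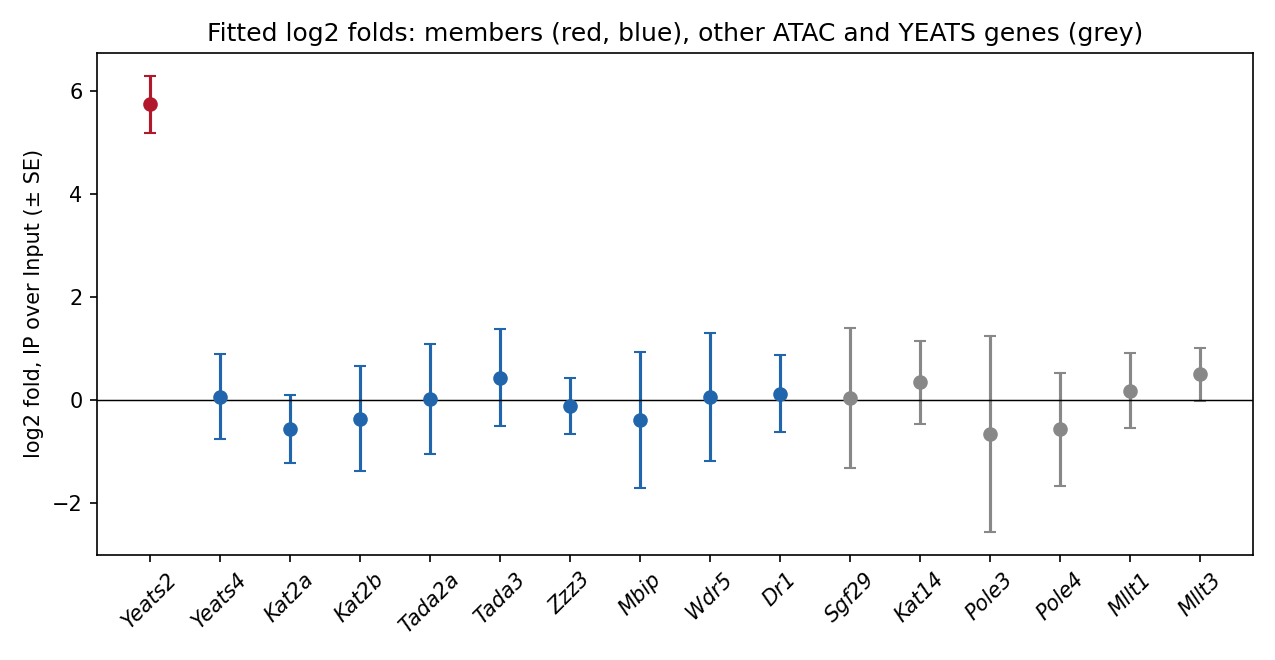
Fitted log2 fold of IP over Input with its SE for Yeats2 (red), its 9 partners (blue) and the 4 further ATAC subunits and 2 further YEATS domain genes (grey). Yeats2 lies at 5.75, and the partners lie between -0.56 and 0.43 with SE bars that all cross 0.

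The distance between Yeats2 and its partners was set out within each IP library, where the scaling of libraries plays almost no part. The log2 ratio of IP to Input, with 0.5 CPM added to each, was 5.09, 5.62 and 6.24 for Yeats2 in IP 1, 2 and 3. The median ratio of the 9 partners was -0.29, -0.17 and 0.093, and the highest single partner ratio was 0.35, 0.97 and 0.82. Yeats2 exceeded the partner median by 5.38, 5.79 and 6.14, with a mean of 5.77 ± 0.38 (SD, n = 3). The fitted folds gave a difference of 5.72.

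The place of Yeats2 in the order of the 10 genes per kilobase differed between IP and Input. Per kilobase of all annotated exons, Yeats2 was first in IP, at 95.01, 138 and 211 CPM per kb in IP 1, 2 and 3, and last in the Input, at 2.75 CPM per kb. In IP the next were Yeats4 at 23.2 ± 5.53 and Kat2a at 17.3 ± 8.59 CPM per kb, and the lowest were Wdr5 at 3.16 ± 1.07 and Kat2b at 3.15 ± 0.40 CPM per kb (SD, n = 3). In the Input Kat2a was first at 25.6 CPM per kb, followed by Yeats4 at 22.2 and Dr1 at 11.5. The IP ranges of adjacent partners overlapped for all 8 pairs, and Yeats2 did not overlap with Yeats4. Yeats2 made up 52.9%, 64.2% and 66.2% of the summed level per kb of the 10 genes in IP 1, 2 and 3, against 2.78% in the Input. With the length of the longest protein-coding transcript in place of all annotated exons, Yeats2 was still first in IP but 8th of 10 in the Input, at 5.22 CPM per kb against 4.25 for Kat2b and 3.78 for Wdr5. On that length the shares were 64.5%, 73.6% and 75.5% in the IP libraries and 4.36% in the Input. The 9 partners together summed to 84.6, 76.9 and 108 CPM per kb of exon in the IP libraries, against 96.3 CPM per kb in the Input, so the partners' sum had the Input inside the IP range. Among 14536 tested genes with a length, Yeats2 ranked 328th, 182nd and 83rd per kb in IP 1, 2 and 3, against 8347th in the Input.

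Genes of the related complexes were examined to see whether other subunits were called alongside Yeats2. Of 82 genes in 8 lists, edgeR, DESeq2 and limma-voom each called 0, and edgeR gave 4 higher and 0 lower genes at an unadjusted p under 0.05 (3.2% and 1.23% of all genes). All 3 IP libraries were above the Input for 22 of the 82 and below it for 11 (19.7% and 24.1% of all genes). The median log2 fold of the 82 was 0.19, and -0.027 with upper-quartile factors and -0.083 with library totals. Those scalings shift all genes nearly alike, with medians over all genes of -0.13 and -0.19, and that shift also takes the SAGA, TIP60 and deacetylase medians below 0.

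Of 4 further ATAC subunits 0 were called by any of these 3 tools and 0 had an unadjusted p under 0.05, and their median log2 fold was -0.27. Kat14, which encodes the second acetyltransferase of ATAC and is listed in the tables under its older symbol Csrp2bp, was at 39.5, 31.8 and 38.3 CPM in IP 1, 2 and 3, against 28.8 CPM in the Input. Each IP library exceeded the Input by a little, and the fitted difference was 0.34 ± 0.81 on the log2 scale (SE) with an edgeR adjusted p of 0.99995. Pole4, a histone-fold protein, was at 27.2, 8.87 and 6.38 CPM in the IP libraries, against 21.0 CPM in the Input.

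Among 20 SAGA subunits the 3 tools called 0, 0 had an unadjusted p under 0.05, and the median log2 fold was 0.17. Usp22, the deubiquitinase of SAGA, was at 272, 291 and 285 CPM in IP 1, 2 and 3, against 239 CPM in the Input (log2 fold 0.24 ± 0.41, SE). The large scaffold gene Trrap, shared with TIP60, was at 147, 184 and 131 CPM in the IP libraries, against 105 CPM in the Input (log2 fold 0.55 ± 0.50, SE). Both exceeded the Input in each IP library by small amounts. Of 21 genes of TIP60 and SRCAP, the complexes of Yeats4, none was called by any of these 3 tools, 1 was higher at an unadjusted p under 0.05, and the median was 0.18. That gene was Ep400, a chromatin remodeller, at 183, 317 and 229 CPM in the IP libraries, against 107 CPM in the Input (log2 fold 1.18 ± 0.49, SE, adjusted p = 0.903 in edgeR). The remodeller gene Srcap was at 402, 759 and 563 CPM in the IP libraries, against 345 CPM in the Input (log2 fold 0.73 ± 0.42, SE).

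Of 16 genes that share complexes with Wdr5 the 3 tools called 0, 1 was higher at an unadjusted p under 0.05, and the median log2 fold was 0.31. Kmt2a, a methyltransferase of histone H3, was at 620, 1012 and 1062 CPM in IP 1, 2 and 3, against 383 CPM in the Input (log2 fold 1.23 ± 0.40, SE, adjusted p = 0.480 in edgeR). It passed the threshold when IP 1, the IP library with the Kmt2a level nearest to the Input, was left out (log2 fold 1.42, adjusted p = 0.00109 in edgeR). In the other 10 alternatives the adjusted p of Kmt2a lay between 0.232 and 0.921. The related gene Kmt2c was at 271, 579 and 394 CPM in the IP libraries, against 244 CPM in the Input, so IP 1 was also the nearest for Kmt2c.

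Of 6 other acetyltransferase genes the 3 tools called 0, 1 was higher at an unadjusted p under 0.05, and the median log2 fold was 0.32. That gene, Kat6a, named after its values were seen, was at 201, 240 and 350 CPM in IP 1, 2 and 3, against 127 CPM in the Input (log2 fold 1.06 ± 0.47, SE, adjusted p = 0.99995 in edgeR). The coactivator gene Ep300 was at 235, 335 and 538 CPM in the IP libraries, against 227 CPM in the Input, and its relative Crebbp at 304, 508 and 446 CPM, against 393 CPM in the Input. Of 11 deacetylase genes, which encode the opposing enzymes, none was called by these 3 tools, 1 was higher at an unadjusted p under 0.05, and the median was 0.20. That gene was Hdac9, at 275, 299 and 309 CPM in the IP libraries, against 137 CPM in the Input (log2 fold 1.10 ± 0.44, SE, adjusted p = 0.843 in edgeR), while Hdac4 was at 166, 140 and 130 CPM, against 129 CPM in the Input. Of 3 partners of Dr1 around the TATA-binding protein none was called by these tools, with 0 at an unadjusted p under 0.05 and a median of -0.19. Drap1, the other NC2 subunit, was at 28.9, 57.4 and 46.6 CPM in the IP libraries, against 31.7 CPM in the Input, and the TBP-removing ATPase gene Btaf1 at 60.0, 50.9 and 79.7 CPM, against 72.5 CPM in the Input.

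**Figure D3:**
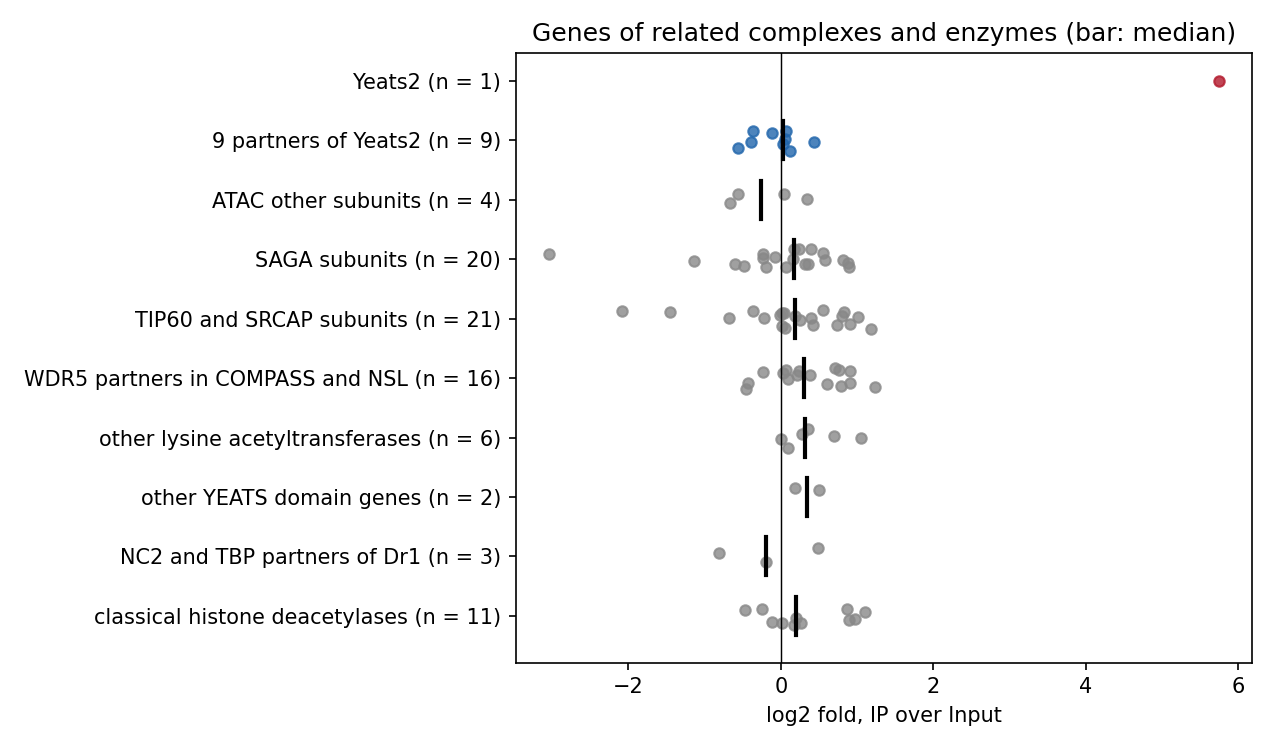
Fitted log2 fold of IP over Input for Yeats2, its 9 partners and the 82 genes of 8 related lists (Trrap is in both SAGA and TIP60), 1 point a gene, with black bars at list medians. Yeats2 at 5.75 lies apart, and the highest of the 82 is Kmt2a at 1.23.

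The genes next to Yeats2 on chromosome 16 were examined because the files do not say which reads gave its count. Of the 3 nearest protein-coding genes on each side, 3 were tested and none of these was called by edgeR. Klhl24, 11841 bases before Yeats2, is a ubiquitin ligase adaptor gene with 162, 85.2 and 130 CPM in IP 1, 2 and 3, against 107 CPM in the Input. Map6d1, which lies on the opposite strand with its 3′ end 729 bases past the end of Yeats2 and encodes a microtubule-binding protein, was at 151, 58.4 and 84.9 CPM in the IP libraries, against 98.5 CPM in the Input. The IP libraries spanned the Input in both, with log2 folds of 0.23 ± 0.53 for Klhl24 and -0.0024 ± 0.60 for Map6d1 (SE). Parl, a mitochondrial rhomboid protease gene 47244 bases away, was at 2.40, 1.39 and 34.9 CPM in the IP libraries, against 6.72 CPM in the Input, so only IP 3 was high. Klhl6 and Cyp2ab1 had 0 counts in all 4 libraries, and B3gnt5 had 0 counts in the IP libraries and 12 in the Input. No exon base of Yeats2 lay in an exon of another gene, and 0.429% of the 50-base words of its transcript occurred in other genes. The processed pseudogene Gm10241 (chr16:20176727-20177012) lay within Yeats2 on the opposite strand.

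The tested genes most like Yeats2 were found by the Euclidean distance between their log2 ratios in the 3 IP libraries, all against the same Input. Atg7, which encodes an enzyme of autophagy, was the nearest by far, at a distance of 0.35, followed by Ctse at 1.17, Pou2af1 at 1.28, Irf4 at 1.28 and Grpr at 1.32. Atg7 was at 1018, 1055 and 2036 CPM in IP 1, 2 and 3, against 25.4 CPM in the Input, so IP 3 was the highest for it as for Yeats2. The log2 fold of Atg7 was 5.75 ± 0.57 (SE). Ctse, which encodes the aspartic protease cathepsin E, was at 75.7, 144 and 149 CPM in the IP libraries, against 1.02 CPM in the Input. Pou2af1, a coactivator known from B cells, was at 32.3, 52.3 and 54.0 CPM in the IP libraries, against 1 count in the Input. Irf4, an interferon regulatory factor gene, was at 51.6, 43.6 and 40.9 CPM in the IP libraries, against 0.720 CPM in the Input, and Grpr, the receptor for gastrin-releasing peptide, at 115, 60.8 and 89.1 CPM, against 1.62 CPM. Yeats2 and Atg7 had 532 and 424 Input counts, whereas these 4 had few: 17 for Ctse, 1 for Pou2af1, 12 for Irf4 and 27 for Grpr. The distance is a description over 4 libraries and was chosen by the same contrast as Yeats2.

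**Figure D4:**
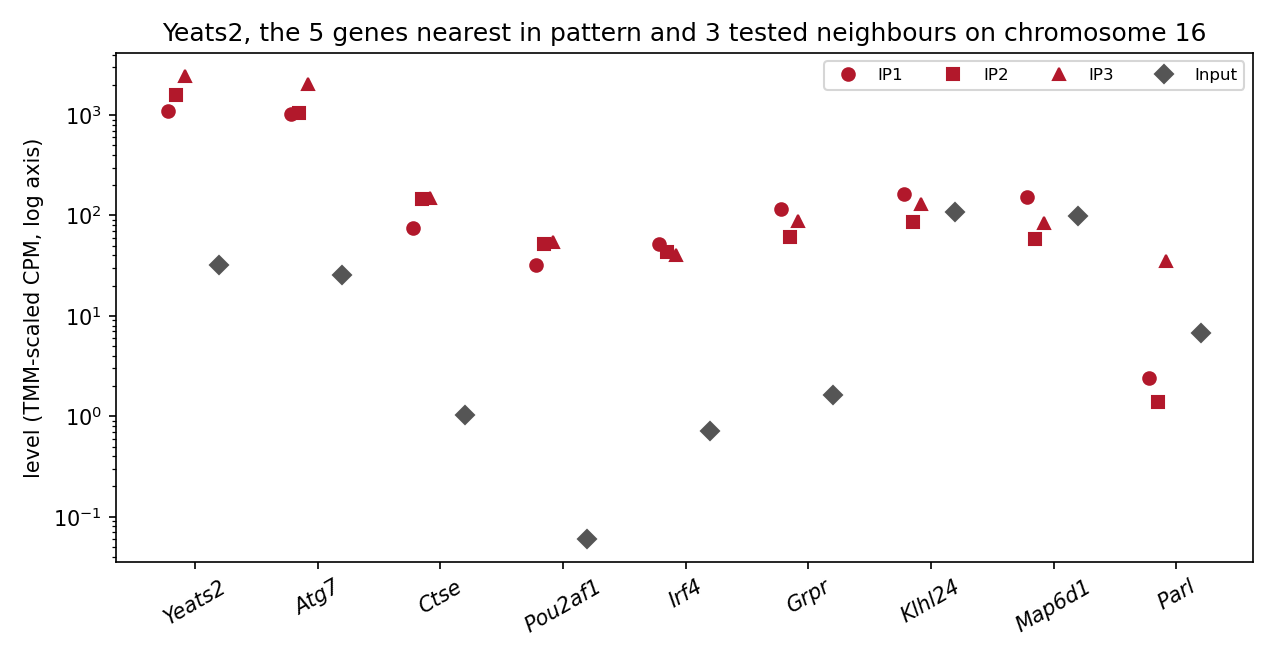
Level in each library, in TMM-scaled CPM on a log axis, of Yeats2, the 5 genes nearest to it in pattern and the 3 tested neighbours on chromosome 16, with IP in red and Input in grey. Yeats2 and Atg7 have Inputs of 31.9 and 25.4 CPM and IP values of 1018 CPM or more, whereas the IP points of the 3 neighbours lie on both sides of their Input.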

How the data were processed

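RNA of mouse prefrontal cortex was sequenced from 3 IP libraries and 1 Input library. Each deposited file holds 1 library, with whole-number raw counts beside an Entrez identifier and a symbol, per the file headers. The submitters' processing notes name STAR 2.0.0e, HTSeq and the build mm10, and the deposited file names hold the word subread. The annotation, the strand of counting and the treatment of multiply mapped reads are not given in the sources used here, so reads of overlapping or near-identical genes may have been dropped or split.

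Counts were filtered with filterByExpr of edgeR 4.0.16 (minimum count 10) in R 4.3.3 and scaled by TMM (factors 0.932 to 0.974 for IP and 1.15 for the Input). IP was compared with Input by the two-sided quasi-likelihood F test of edgeR, adjusted by Benjamini-Hochberg over 14636 genes, with a threshold of 0.05. Only the IP libraries informed the spread, leaving 2 residual degrees of freedom, and the single Input was taken to have the same variability. The SE was taken as the absolute log2 fold over the root of the F statistic. DESeq2 1.42.0, limma-voom (limma 3.58.1), other scalings and filters, and leaving out each IP library were alternatives. On simulated counts 100 of 100 genes changed 32-fold and 37 of 100 changed 4-fold were called by edgeR in the simulated IP against Input, run on 14636 genes. The changed genes were drawn only from genes above a set mean level, which the least abundant partners do not reach. Of 13763 unchanged genes in that simulation, edgeR called 9, DESeq2 122 and limma-voom 6 in either direction. DESeq2 called 100 of 100 genes changed 32-fold and 49 of 100 changed 4-fold there. A large part of its simulated calls was thus false, and its calls are weaker support than those of edgeR. A single count was worth 0.0436 to 0.107 CPM in IP and 0.0600 CPM in the Input. No library was a copy of another (chi-square per degree of freedom at least 75.4). Against the Input that measure was 178 for IP 1, 122 for IP 2 and 135 for IP 3. It grows with the number of counts, and its order is that of the library totals (23548375 in IP 1, 10031072 in IP 2 and 12150980 in IP 3). These values therefore do not rank the IP libraries by distance from the Input.

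Exon lengths, coordinates and transcripts came from GENCODE M21 (GRCm38), and promoters from RefSeq (GRCm38.p6), in which all 10 genes matched. Words of 50 bases of the longest protein-coding transcript were searched in all other transcripts on both strands, and paralogs were compared by coding rather than protein sequence, aligned with Biopython 1.88. The annotation the authors counted with may differ. The 10 genes and the lists were chosen with earlier results of these data known. Named from the lists are genes past the threshold and the 2 most abundant of each list, further the 5 genes nearest to Yeats2 (0.5 CPM added), and 3 neighbours a side. Kat6a and the statements on single genes past an unadjusted p were chosen after values were seen.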

Additional observations from a re-analysis of the deposited data

How the results depend on the processing

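Yeats2 was called and the 9 partners were not under all 11 alternative fits, and the log2 fold of Yeats2 ran from 5.40 to 5.96. Its difference from the partner median ran from 5.61 to 6.02. The count of called members was 1 throughout. The count of called genes was 67 in the reported fit (60 higher and 7 lower in IP; 51 and 15 with upper-quartile factors, 50 and 15 with library totals, 37 and 14 with limma-voom), 181 with DESeq2, 108 without a low-count filter, 39 at an adjusted p under 0.01, and 90 to 210 when an IP library was left out (210 without IP 1, 105 without IP 2). The count of called list genes was 0 to 1 in those fits, the 1 being Kmt2a without IP 1. No paired analysis was possible because the Input is a single library with no replicate number.

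The sign of the log2 fold turned for the genes below, none of them called in any of these fits, and the cause was not tested. With upper-quartile factors the log2 fold was -0.15 for Yeats4, -0.19 for Tada2a, -0.16 for Wdr5, -0.096 for Dr1, -0.13 for Crebbp, -0.035 for Mllt1 and -0.049 for Hdac4. With library totals it was -0.21 for Yeats4, -0.24 for Tada2a, -0.22 for Wdr5, -0.15 for Dr1, -0.031 for Usp22, -0.19 for Crebbp, -0.093 for Mllt1, -0.10 for Hdac4 and -0.033 for Klhl24. With a mean of at least 5 CPM it was -0.052 for Yeats4, -0.091 for Tada2a, -0.057 for Wdr5 and -0.022 for Crebbp. With limma-voom it was -0.23 for Tada2a, -0.32 for Tada3, -0.10 for Wdr5, -0.016 for Crebbp, -0.56 for Parl and 0.025 for Map6d1. Map6d1 was at 0.0063 with DESeq2 and with RLE factors and at 0.0034 without a filter. Leaving out each IP library gave -0.13 to 0.23 for Yeats4, -0.66 to 0.47 for Tada2a, -0.21 to 0.27 for Wdr5, -0.071 to 0.26 for Crebbp, -0.014 to 0.45 for Klhl24, -0.48 to 0.26 for Map6d1 and -1.82 to 1.47 for Parl. Limma-voom ended the calls of Crh, Ctse, Irf4, Grpr and Pou2af1 and kept that of Atg7. Its log2 folds were 7.73 ± 2.46 for Crh, 6.70 ± 2.15 for Ctse, 5.95 ± 2.11 for Irf4 and 5.78 ± 1.84 for Grpr (SE), close to the edgeR folds but with larger errors. Partners at about 10 CPM had intervals of over 2 log2 units each way. In the simulated counts edgeR called 37 of 100 genes changed 4-fold. Those genes were drawn only from levels above that of such partners, so the simulation gives no rate for them.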

Other observations

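Among the 91 tested list genes and partners, folds were described by exon length, with no test. In the 30 longest (6874 to 20859 bases of exon) the median log2 fold was 0.52, and 17 had all 3 IP libraries above the Input and 4 below it. In the middle 30 (3849 to 6795 bases) the median was 0.18, with 4 above and 6 below. In the 31 shortest (1146 to 3841 bases) the median was 0.035, with 1 gene above the Input in all 3 IP libraries and 3 below it. Of all tested genes, 19.7% had all 3 IP libraries above the Input and 24.1% had all 3 below it. The longer genes include Kmt2a at 1.23 and Ep400 at 1.18, and also Tbp at -0.82, Mbtd1 at -0.67, Kmt2d at 0.068 and Crebbp at 0.091. Across these 91 genes Spearman's rho was 0.28 between exon length and log2 fold, 0.49 between mean CPM and log2 fold and 0.62 between length and mean CPM, and the genes share libraries and depth and are not independent replicates. Over all 14536 tested genes with a length the rho of length with fold was 0.072. In the same genes it was 0.30 between mean CPM and fold and 0.38 between length and mean CPM.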
